A study of Mus musculus with 12 samples.

Results

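The 10 genes described here encode the Myc, Max and Mxd network of basic helix-loop-helix leucine zipper transcription factors: Myc, Mycn, Mycl, Max, Mxd1, Mxd3, Mxd4, Mxi1, Mnt and Mga. They were taken by gene symbol from a table of 18269 genes, and 10 of the 10 symbols were found, each with a mean of at least 10 normalised reads in at least 1 group. RNA was sequenced from embryoid bodies, aggregates in which mouse embryonic stem cells differentiate, of strain C57BL/6. The series asks how loss of the histone acetyltransferase Gcn5 (gene symbol Kat2a) alters gene expression early in this process, and its title names Myc and FGF signalling. Floxed samples came from line 4_1 with the genotype Gcn5fx/fx, in which Gcn5 is flanked by recombination sites, and null samples from line 4_C2 with the genotype Gcn5-/-. Each line was sampled at day 3 and day 5 of differentiation, with no other treatment named in the labels, and the sample labels give 3 libraries in each of the 4 groups, where the series' design text mentions duplicates, a difference that the files do not settle. Because 1 line stands for each genotype, effects of the line and of the genotype cannot be told apart. Nothing in the labels says that the 3 libraries of a group came from separate cultures, so p-values measure only the spread between these libraries, which may be technical.

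Myc proteins bind DNA as dimers with Max at E-box sequences, of which CACGTG is the canonical form, and recruit acetyltransferase complexes, among them those built on the scaffold Trrap that can carry Gcn5. Mxd proteins and Mnt also dimerise with Max at E-boxes and recruit the Sin3 and histone deacetylase corepressor. Mga, the largest member, carries a T-box beside its helix-loop-helix region and anchors with Max a Polycomb complex, PRC1.6, known in embryonic stem cells for keeping germline genes silent. Mycn and Myc are both known to support growth of embryonic stem cells, and Mycl is the least studied of the 3 paralogs.

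Promoters of the network genes were examined for the sequence that the network itself binds. RefSeq promoters (assembly GRCm38.p6, 250 bases before to 50 after the start) matched 9 of the 10 members, with 11 promoters in all. CACGTG, which reads the same on both strands, lay in a promoter of 3 of the 9 genes, Max, Mnt and Mxd4, and of 8.09% of all 27025 genes with a promoter (7.15% of all 32851 promoters). TTTGGCGC, a sequence known as a binding site of E2F factors, was searched on both strands. It lay in the Mycn promoter and no other member's, 2 times, and in 0.514% of all promoters. A motif match is a description of these letters and not a binding site. The 4 member promoters with a match are shown with the motif in capitals, at chr12:76962199-76962498 (minus strand) for Max, chr11:74830674-74830973 (plus) for Mnt, chr5:34187661-34187960 (minus) for Mxd4 and chr12:12941787-12942086 (minus) for Mycn. The Max match starts 3 bases before the start of transcription, that of Mnt 123 and that of Mxd4 219 bases before it. The promoters of Ddx4 at chr13:112652261-112652560 (minus) and Stk31 at chr6:49395289-49395588 (plus), 2 germline genes described further on, are shown because they carry the same CACGTG, 29 and 55 bases before the start.
Max: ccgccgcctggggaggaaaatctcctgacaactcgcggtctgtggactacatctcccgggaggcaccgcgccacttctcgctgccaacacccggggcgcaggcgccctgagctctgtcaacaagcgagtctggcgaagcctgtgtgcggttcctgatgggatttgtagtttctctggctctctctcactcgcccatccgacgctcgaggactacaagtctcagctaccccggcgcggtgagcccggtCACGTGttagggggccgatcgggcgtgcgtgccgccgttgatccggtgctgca
Mnt: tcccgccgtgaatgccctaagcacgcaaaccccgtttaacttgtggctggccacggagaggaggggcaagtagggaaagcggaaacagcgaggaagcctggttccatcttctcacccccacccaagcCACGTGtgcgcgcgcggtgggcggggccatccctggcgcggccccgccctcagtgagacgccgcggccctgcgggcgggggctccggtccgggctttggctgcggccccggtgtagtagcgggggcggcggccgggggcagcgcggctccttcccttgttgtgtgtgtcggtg
Mxd4: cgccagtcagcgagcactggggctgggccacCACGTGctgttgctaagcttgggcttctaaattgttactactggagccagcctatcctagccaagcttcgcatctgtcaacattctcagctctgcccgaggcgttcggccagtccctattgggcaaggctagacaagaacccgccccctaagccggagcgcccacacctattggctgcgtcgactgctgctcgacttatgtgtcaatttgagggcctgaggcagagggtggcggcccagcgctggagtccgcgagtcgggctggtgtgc
Mycn: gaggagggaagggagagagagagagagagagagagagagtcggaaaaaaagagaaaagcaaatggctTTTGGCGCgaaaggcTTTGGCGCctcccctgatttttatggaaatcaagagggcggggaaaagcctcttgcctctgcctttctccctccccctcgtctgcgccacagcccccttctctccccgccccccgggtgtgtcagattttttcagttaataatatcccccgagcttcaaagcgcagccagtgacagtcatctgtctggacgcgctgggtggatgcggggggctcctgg
Ddx4: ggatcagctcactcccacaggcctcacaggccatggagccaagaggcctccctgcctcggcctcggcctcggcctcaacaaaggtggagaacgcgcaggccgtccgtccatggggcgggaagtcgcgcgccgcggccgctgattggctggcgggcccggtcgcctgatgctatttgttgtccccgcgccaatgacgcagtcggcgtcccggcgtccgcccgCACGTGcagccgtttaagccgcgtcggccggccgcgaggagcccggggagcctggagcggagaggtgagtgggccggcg
Stk31: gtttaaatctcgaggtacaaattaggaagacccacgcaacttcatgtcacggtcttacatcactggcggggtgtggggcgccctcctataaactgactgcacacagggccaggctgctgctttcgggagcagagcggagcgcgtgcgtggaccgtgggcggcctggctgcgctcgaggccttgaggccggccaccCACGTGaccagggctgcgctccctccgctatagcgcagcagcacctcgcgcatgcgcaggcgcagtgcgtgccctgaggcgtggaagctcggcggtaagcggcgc

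The targeted gene was checked first. Kat2a, the gene for Gcn5, had 2228 ± 151 normalised reads (mean ± SD, n = 3, as for all group values here) in floxed and 701 ± 122 in null libraries at day 3, and 2207 ± 165 and 817 ± 67.5 at day 5. Its log2 change between null and floxed was -1.68 ± 0.11 (± SE, adjusted p = 1.01e-05 in limma with Benjamini-Hochberg adjustment, as for all adjusted p-values unless another tool is named) and -1.43 ± 0.11 (adjusted p = 1.6e-05). Where in the gene the remaining reads of null libraries lie cannot be read from a single value per gene. Normalised reads are read counts divided by 1 size factor per library, and recovered whole reads numbered 18022071 to 29446068 per library. Mxd1 was the member with the fewest reads, 67 to 245 per library, and Myc had 77 to 600. Of the 4 libraries numbered 3, 3 were separated from the rest by the third principal component. On chromosome 11, where Mnt, Mlx and Kat2a lie, genes had a median change of 0.36 at day 3 and 0.33 at day 5, against -0.02 and -0.04 on the other chromosomes. Embryoid bodies are mixtures. Summed pluripotency markers (5 of 5 measured) ranged from 16932 to 23117 normalised reads in floxed and 13290 to 19257 in null libraries at day 3, and from 8364 to 11587 and 4562 to 7126 at day 5, where the genotypes did not overlap. Summed markers of feeder fibroblasts and other collagen-making cells (6 of 7 measured) ranged from 217 to 296 at day 3 and 1019 to 2914 at day 5. In such bulk samples, fewer cells of a type and less RNA per cell cannot be told apart.

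Compared per kilobase of exon, Mga was the most abundant network transcript at day 3 and Mycn at day 5, in both lines. At day 3 in floxed libraries, Mga stood at 570 ± 28.6 normalised reads per kilobase, Mycn at 409 ± 47.0, Max at 271 ± 19.5, Mycl at 205 ± 72.5 and Mnt at 127 ± 15.6. Below these came Mxd3 (80.3 ± 8.26), Mxi1 (78.0 ± 14.7), Myc (63.1 ± 11.6), Mxd4 (29.9 ± 6.86) and Mxd1 (14.1 ± 0.821). Libraries of Max and Mycl overlapped, as did those of Mxd3 and Mxi1 and of Mxi1 and Myc, so these neighbours did not differ beyond their spread. At day 5 in floxed libraries, Mycn (867 ± 77.1) and Mycl (617 ± 171) stood above Mga (493 ± 48.8), with overlap between Mycl and Mga, and Myc (138 ± 40.0) lay below Max (268 ± 6.62) and overlapped with Mnt (119 ± 12.6). At day 5 in null libraries Mycn (678 ± 80.5) was again first, while Myc (41.2 ± 14.6) stood above Mxd1 alone, overlapping with Mxd3 above it and Mxd1 (30.4 ± 0.113) below it.

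**Figure D1:**
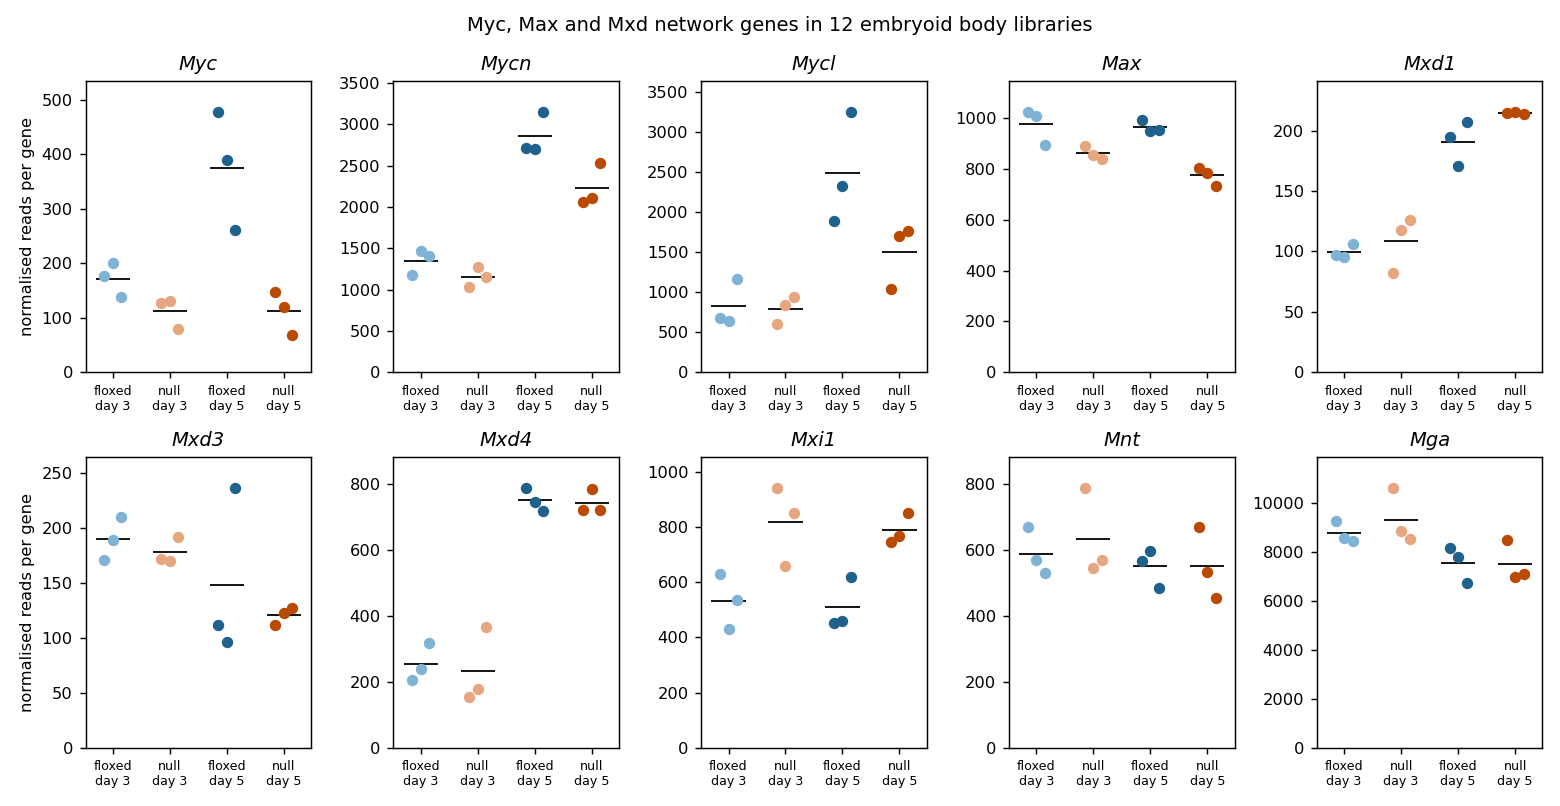
Normalised reads per gene (vertical axis, from 0, one scale per panel) of the 10 members in each of the 12 libraries, by genotype and day. Points are libraries and bars are group means (n = 3). Myc is higher in the 3 floxed day 5 libraries (261 to 477) than in each of the others, whereas Mxi1 is higher in null libraries on both days.

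Null and floxed libraries at day 5 were compared to ask which members depend on the Gcn5 genotype later in differentiation. Myc, Mycn and Max were lower in null embryoid bodies, by 3.40-fold, 1.28-fold and 1.25-fold, and Mxi1 was higher by 1.56-fold. Of the 10 members, 1 was called higher and 3 lower (adjusted p under 0.05), where 26.5% of all 17000 genes tested were called, 13.0% higher and 13.5% lower. The median change over the 10 members was -0.10, against -0.02 over all genes tested. Libraries did not overlap between genotypes for 6 of the 10 members, 4 lower and 2 higher in null, where 42.0% of all genes did not overlap.

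Some markers of cell state moved with the genotype in the same day 5 libraries. Of the 5 pluripotency markers, Pou5f1 (-1.04 ± 0.26), Sox2 (-0.76 ± 0.07) and Esrrb (-1.48 ± 0.32) were called lower in null libraries, under all 19 other settings as well. Nanog and Zfp42 were not called. Beside these, 13.5% of all genes were called lower at day 5 and 13.0% higher. The 5 markers did not move together with time. From day 3 to day 5 in floxed libraries, Sox2 and Esrrb were called higher and Pou5f1, Nanog and Zfp42 lower. Between these days 22.5% of all genes were called higher and 19.2% lower. All 3 primed epiblast markers were called lower in null libraries at day 5, Fgf5 (-1.03 ± 0.30), Otx2 (-1.08 ± 0.29) and Dnmt3b (-0.46 ± 0.16). Their sum ranged from 8695 to 11702 in floxed and from 6571 to 8562 in null libraries. These 3 calls were lost under 5, 2 and 6 of the 19 settings, and each was lost without floxed library 1 and without null library 2. T, of the primitive streak (-2.18 ± 0.59), lost its call under 4 of the 19. These were without null library 1 or 3, without the libraries numbered 3, and with the day 5 groups fitted alone. Streak markers were low, with sums (3 of 4 measured) of 130 to 406 in floxed and 81.6 to 116 in null libraries. T was the 1 of these 3 called, with a list median of -1.34. The endoderm gene Foxa2 (-1.38 ± 0.29) kept its call under all 19. It was the 1 of 5 endoderm markers called, with a list median of -0.16. Summed neural markers (3 of 3 measured) ranged from 7065 to 11251 in floxed and from 5058 to 6739 in null libraries, with none of the 3 called, and summed endoderm markers overlapped. At day 3 Fgf5 (-1.25 ± 0.30) and Otx2 (-1.06 ± 0.29) were called lower, each lost without 4 of the 6 single libraries. There 2.03% of all genes were called lower. The part of these markers in the day 5 values of the network genes, their partners, the germline genes and the Myc targets was not tested.

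Myc, the c-Myc oncoprotein gene and the founding member (ENSMUSG00000022346.14, chromosome 15, 61985391 to 61990374), had 477, 389 and 261 normalised reads in the floxed libraries at day 5. The null libraries had 147, 120.0 and 68.6. The highest null library lay below the lowest floxed library. The log2 change was -1.76 ± 0.30 (adjusted p = 0.0014), and it stayed called under all 19 other settings, at -2.0 to -1.45 (adjusted p 1.74e-07 to 0.00799). Within each of the 4 groups of the study, the library numbered 3 was the lowest for Myc.

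Mycn, the paralog known for its role in embryonic and neural progenitors (ENSMUSG00000037169.14, chromosome 12, 12936093 to 12941914), had 2710.0, 2707 and 3149 normalised reads in floxed libraries at day 5 and 2057, 2105 and 2539 in null libraries. The groups did not overlap, although the highest null and the lowest floxed library were close. The log2 change was -0.36 ± 0.11 (adjusted p = 0.0342). The call was lost with upper-quartile scaling (adjusted p = 0.0550), without the libraries numbered 3 (0.0675), without floxed library 1 or 3 (0.0539 and 0.125) and without null library 1 or 2 (0.111 and 0.107).

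Mycl (ENSMUSG00000028654.13, chromosome 4, 122995652 to 123002485), the third paralog, had 1893, 2329 and 3249 normalised reads in floxed libraries at day 5 and 1039.8, 1707 and 1759.6 in null libraries. The groups did not overlap, and the library numbered 3 was the highest for Mycl in each of the 4 groups, the opposite of Myc. The log2 change of -0.73 ± 0.27 did not pass the test (adjusted p = 0.0604, 95% interval -1.31 to -0.15). It passed with the replicate number as a block (adjusted p = 0.00167, with 17.3% of all genes called lower), with DESeq2 (0.0248) and without floxed library 1 (0.0464).

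Max, the shared dimerisation partner (ENSMUSG00000059436.12, chromosome 12, 76937269 to 76962201), had 993, 951 and 952 normalised reads in floxed libraries at day 5. The null libraries had 806, 786 and 733, all lower. The log2 change was -0.32 ± 0.08 (adjusted p = 0.0105). Without the libraries numbered 3 it was no longer called (adjusted p = 0.0636).

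Mxi1, also known as Mxd2, is an Mxd repressor that opposes Myc at E-boxes (ENSMUSG00000025025.13, chromosome 19, 53310518 to 53375810). It had 453, 459 and 617 normalised reads in floxed libraries at day 5 and 746, 768 and 851 in null libraries. Each null library was above each floxed one. The log2 change was 0.64 ± 0.17 (adjusted p = 0.0136), and the call was lost without floxed library 1 (adjusted p = 0.0535). Some Mxi1 exon bases are shared with Gm10197 on the other strand. Whether counting used the strand is not stated, so reads of the pair may be mixed.

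The other Mxd genes did not pass the test at day 5. Mxd1, a repressor induced on terminal differentiation in many lineages (ENSMUSG00000001156.9, chromosome 6, 86647042 to 86669161), had 195, 171 and 208 normalised reads in floxed and 215, 216 and 214 in null libraries (0.17 ± 0.17, adjusted p = 0.490). The null libraries lay close together and just above the highest floxed library. Mxd3, the Mxd gene linked to proliferating cells (ENSMUSG00000021485.13, chromosome 13, 55325168 to 55329823), had 112, 96.4 and 237 in floxed and 112, 122 and 127 in null libraries (-0.18 ± 0.26, adjusted p = 0.644). Floxed library 3 stood apart from the other two. Mxd4 (ENSMUSG00000037235.13, chromosome 5, 34173883 to 34187720) had 788, 745 and 718 in floxed and 722, 785 and 721 in null libraries, which overlapped throughout (-0.01 ± 0.25, 95% interval -0.56 to 0.53, adjusted p = 0.975). Exons of Mxd3 overlap those of Prelid1, and exons of Mxd4 those of the antisense gene Gm42846, so their values may hold reads of both.

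Mnt and Mga did not pass the test either. Mnt, a widely expressed repressor and partner of Max (ENSMUSG00000000282.12, chromosome 11, 74830920 to 74845725), had 567, 598 and 485 normalised reads in floxed and 670.2, 532 and 455 in null libraries at day 5 (-0.01 ± 0.17, 95% interval -0.36 to 0.35, adjusted p = 0.985). With the median of chromosome 11 centred between genotypes, its change was -0.35 (adjusted p = 0.177), and at day 3 it went from 0.09 to -0.27 (adjusted p = 0.449). Mga (ENSMUSG00000033943.15, chromosome 2, 119897228 to 119969581) had 8165, 7789 and 6723 in floxed and 8492, 6957 and 7077 in null libraries (-0.01 ± 0.10, 95% interval -0.23 to 0.21, adjusted p = 0.952). Its interval was the narrowest of the members outside the called set.

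At day 3, 1 of the 10 network members was called between genotypes. Mxi1 was that member, with 630.2, 430.0 and 536 normalised reads in floxed and 941, 657 and 851 in null libraries. The null libraries all lay above the floxed ones, though the lowest null library was close to the highest floxed one. The log2 change was 0.62 ± 0.17, a 1.54-fold higher level (adjusted p = 0.0449). That call, 1 of 10 members where 6.12% of all genes tested were called (4.09% higher, 2.03% lower), was lost under 8 of 19 other settings. It was lost without the libraries numbered 3 (adjusted p = 0.148), without floxed library 2 or 3 (0.159 and 0.0822), without null library 1 or 3 (0.144 and 0.134), with the day 3 groups fitted alone (0.0897), and with chromosome 11 left out or centred (0.0695 and 0.0668). It was not lost with the replicate block.

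Myc had 176, 201 and 138 normalised reads in floxed and 127, 131 and 79.6 in null libraries at day 3, without overlap. The log2 change of -0.62 ± 0.30 missed the threshold (adjusted p = 0.240, 95% interval -1.27 to 0.02). It passed with the replicate number as a block in limma (adjusted p = 0.0225) and in edgeR (0.0243). Of all genes, 4.53% were called lower by limma with the block. Max had 1024, 1008 and 895 in floxed and 891, 855 and 839.6 in null libraries, again without overlap, and a change of -0.18 ± 0.08 (adjusted p = 0.199). Mycn had 1172, 1466 and 1404 in floxed and 1033, 1275 and 1152 in null libraries, which overlapped (-0.22 ± 0.11, adjusted p = 0.265). Mycl overlapped throughout, with 677, 643 and 1166 against 606, 839 and 938 (-0.03 ± 0.27, adjusted p = 0.966). Changes of Mxd1 (0.10), Mxd3 (-0.09), Mxd4 (-0.21), Mnt (0.09) and Mga (0.09) had adjusted p-values of 0.681 to 0.878. Libraries did not overlap for 3 of the 10 members, where 27.9% of all genes did not.

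**Figure D2:**
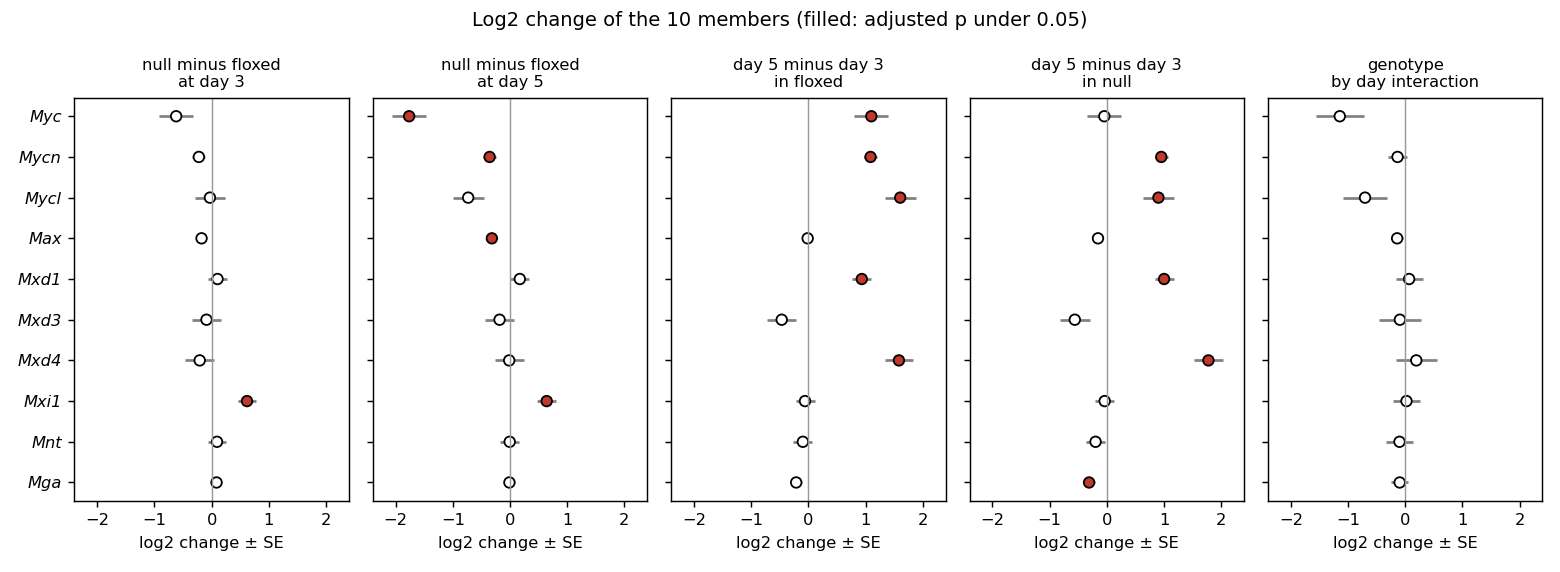
Log2 change ± SE (horizontal axis) of each of the 10 members in the 5 comparisons, from limma over 12 libraries. Filled points passed an adjusted p under 0.05. The null minus floxed change of Myc is -0.62 at day 3 and -1.76 at day 5, while that of Mxi1 is 0.62 and 0.64.

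From day 3 to day 5 in floxed embryoid bodies, all 3 Myc paralogs and 2 of the Mxd repressors rose together. Myc rose 2.14-fold (1.10 ± 0.30, adjusted p = 0.00988), Mycn 2.12-fold (1.09 ± 0.11, adjusted p = 1.34e-05) and Mycl 3.04-fold (1.6 ± 0.27, adjusted p = 0.000426). Mxd1 rose 1.91-fold, from 96.8, 95.4 and 106 normalised reads to the day 5 values given before (0.93 ± 0.17, adjusted p = 0.000712). Mxd4 rose 3.00-fold, from 205, 238 and 318 (1.58 ± 0.25, adjusted p = 0.000298). For these 5 genes each day 5 library exceeded each day 3 library. No member was called lower, and the 5 of 10 called higher stand beside 41.7% of all genes called, 22.5% higher and 19.2% lower. Libraries of the 2 days did not overlap for 6 members, where 53.2% of all genes did not.

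Max (-0.01 ± 0.08), Mxi1 (-0.06 ± 0.17) and Mnt (-0.10 ± 0.17) did not pass in floxed libraries, with 95% intervals of -0.18 to 0.16, -0.42 to 0.30 and -0.45 to 0.26. Mxd3 went from 171, 189 and 210.4 at day 3 to 112, 96.4 and 237 (-0.47 ± 0.26, adjusted p = 0.166). Without floxed day 5 library 3 its change was -0.86 (adjusted p = 0.00127), so that 1 library decided the call. Mga went from 9242, 8569.8 and 8418 to lower values in each day 5 library (-0.21 ± 0.10, adjusted p = 0.115).

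In null embryoid bodies Mycn, Mycl, Mxd1 and Mxd4 rose from day 3 to day 5, whereas Myc did not pass. Myc had 127, 131 and 79.6 normalised reads at day 3 and 147, 120.0 and 68.6 at day 5, overlapping ranges with a change of -0.04 ± 0.30 (95% interval -0.69 to 0.60, adjusted p = 0.919). Mycn rose 1.93-fold (0.95 ± 0.11, adjusted p = 3.69e-05) and Mycl 1.87-fold (0.90 ± 0.27, adjusted p = 0.0152). The Mycl call was lost without day 3 library 1 (adjusted p = 0.0713) and without day 5 library 2 or 3 (0.0602 and 0.0601). Mxd1 rose 2.0-fold from 81.9, 118 and 126 (1.0 ± 0.17, adjusted p = 0.000417), and Mxd4 3.43-fold from 155, 177 and 367 (1.78 ± 0.25, adjusted p = 0.000126).

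Mga was the member that fell with time in null embryoid bodies, from 10603, 8831 and 8502 normalised reads to 8492, 6957 and 7077 (-0.31 ± 0.10, adjusted p = 0.0264). The call was lost without day 3 library 1 (adjusted p = 0.123) and without day 5 library 2 or 3 (0.102 and 0.0868). Mxd3 went from 172, 170.0 and 192 to 112, 122 and 127 without overlap (-0.56 ± 0.26, adjusted p = 0.0937), and passed with the replicate block in limma (0.0446, with 24.3% of all genes called lower) but not in edgeR (0.0584). In all, 4 members were called higher and 1 lower in null libraries, where 44.5% of all genes were called, 22.6% higher and 21.9% lower. Libraries did not overlap between days for 7 members, where 53.7% of all genes did not.

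The difference of the genotype effect between days was tested directly as an interaction. For Myc it was -1.14 ± 0.42, which missed the threshold (adjusted p = 0.243, unadjusted p = 0.0180 in limma over all genes). With the replicate block it passed in limma (adjusted p = 0.0201) and edgeR (0.0257), with 1.36% of all genes called lower by limma. Mycl had -0.70 ± 0.38 (adjusted p = 0.431), and the other members lay between -0.14 and 0.19. Of the 10 members, 0 were called by limma, edgeR or DESeq2 without the block, 1 (Myc) had an unadjusted p under 0.05, and 0.476% of all genes were called. The direction of the Myc value, a larger genotype difference at day 5, was the same in all 24 other settings.

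The makeup of the Myc family itself was described per kilobase of exon. The 3 paralogs summed to 677 ± 88.7 normalised reads per kilobase in floxed and 588 ± 69.3 in null libraries at day 3, and to 1622 ± 207 and 1091 ± 148 at day 5. Mycn made up 60.6% ± 4.98 of the sum at day 3 in floxed libraries, 59.6% ± 2.17 in null, and 53.6% ± 2.31 and 62.4% ± 4.47 at day 5. Mycl made up 29.9% ± 7.22, 33.3% ± 4.37, 37.6% ± 5.70 and 33.7% ± 5.55 in the same order. Myc was the smallest share throughout, at 9.51% ± 2.5, 7.16% ± 2.21, 8.81% ± 3.43 and 3.94% ± 1.86. The log2 ratio of Myc to Mycn at day 5 was -2.96 ± 0.561 in floxed and -4.37 ± 0.728 in null libraries, a difference of -1.41 without overlap. An exact permutation test gave it p = 0.1 (two-sided), the smallest p that 3 against 3 libraries allow, and an adjusted p of 0.4 over the 12 ratio tests made, so no ratio could pass.

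**Figure D3:**
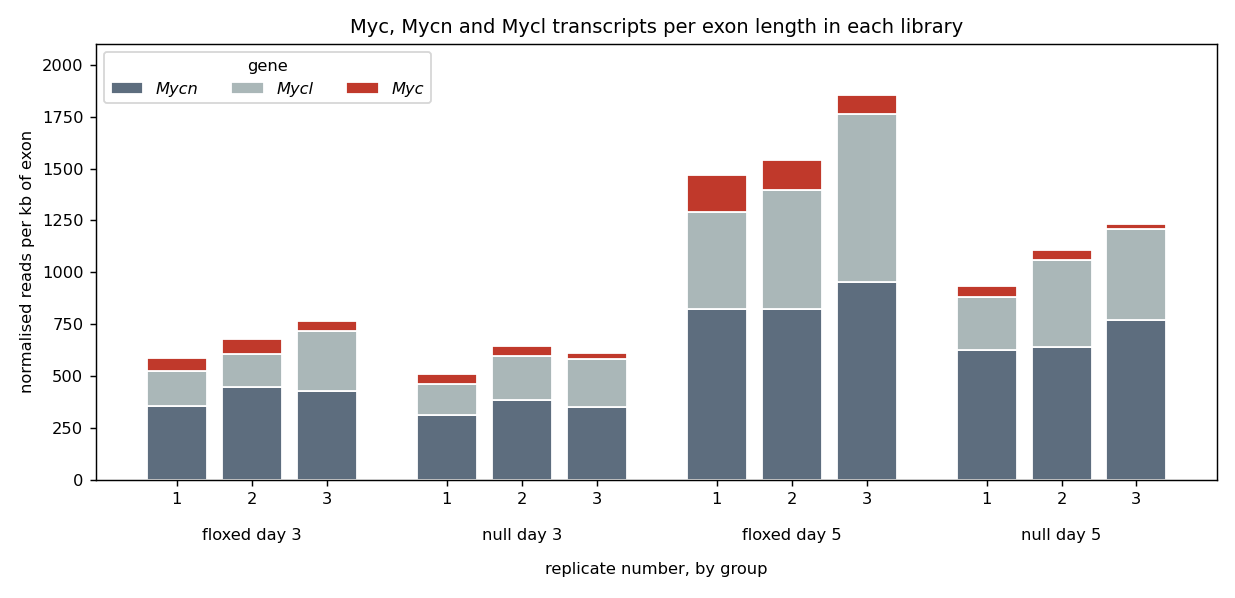
Stacked bars of Mycn, Mycl and Myc in normalised reads per kilobase of exon (vertical axis, from 0) for each of the 12 libraries, by group. The total is larger at day 5 than at day 3 in both lines, and larger in the 3 floxed than in the 3 null libraries at day 5, with Mycn the largest segment in each library.

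The 4 Mxd genes summed to 202 ± 17.8 normalised reads per kilobase in floxed and 238 ± 30.8 in null libraries at day 3, and 253 ± 45.2 and 284 ± 11.2 at day 5. The ratio of summed Myc paralogs to summed Mxd genes was 3.36 ± 0.403 in floxed and 2.51 ± 0.539 in null libraries at day 3. It was 6.46 ± 0.484 and 3.83 ± 0.376 at day 5, where the lowest floxed library (6.10) lay above the highest null library (4.19). Within the Mxd sum, Mxi1 held 29.6% ± 1.14 in floxed and 40.6% ± 1.68 in null libraries at day 5, and 38.5% ± 6.18 and 50.3% ± 6.09 at day 3. The Mxd4 share went from 14.7% ± 2.60 at day 3 to 35.8% ± 6.91 at day 5 in floxed and from 11.3% ± 4.41 to 30.8% ± 1.70 in null libraries. These sums over chosen members are descriptions and were not tested.

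Genes whose pattern over the 12 libraries was most like that of each Myc paralog were sought among 11499 genes by Pearson r of log2 values. The libraries fall into 4 groups, so these r describe shared group differences as well as shared library differences, and no p is given. For Myc they were Fam210a (r = 0.954), Zfp275 (0.953) and Nepro (0.950). Mycn was most like Fat4 (0.982), a protocadherin gene, Akt1 (0.979), a kinase gene, and Fabp7 (0.977), a fatty acid binding protein gene of neural progenitors. Mycl was most like Rhpn1 (0.978), Nmral1 (0.978) and Hmgb3 (0.978).

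Proteins that Myc recruits were read beside it at day 5. Of 13 Myc cofactors, 5 were called lower in null libraries and 0 higher (list median -0.09), where 13.5% of all genes were called lower and 13.0% higher. The deleted Kat2a is 1 of the 5. The helicase genes Ruvbl1 (-0.56 ± 0.07) and Ruvbl2 (-0.34 ± 0.07) and the actin-related Actl6a (-0.31 ± 0.07), subunits shared by Myc-binding remodelling complexes, fell. Trrap, the scaffold between Myc and Gcn5, had 8388 ± 1077 in floxed and 9293 ± 1507 normalised reads in null libraries (0.14 ± 0.13, adjusted p = 0.461). At day 3, 1 of the 13 was called, the deleted Kat2a itself, where 6.12% of all genes were called. The count at day 5 was 3 without the libraries numbered 3, where Actl6a was among the calls lost (adjusted p = 0.0619).

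Of 16 Sin3 and histone deacetylase genes through which Mxd proteins and Mnt repress, 6 were called lower and 3 higher at day 5 (median -0.01), beside 13.5% and 13.0% of all genes. The Sin3 subunits Sap30 (-0.75 ± 0.12), Suds3 (-0.39 ± 0.06) and Sap18 (-0.29 ± 0.07) fell, and the corepressor gene Ncor1, on chromosome 11, rose (0.38 ± 0.07). Ncor1 was at 0.03 with chromosome 11 centred (adjusted p = 0.778). The count of 9 was 5 without the libraries numbered 3, without floxed library 1 or without null library 2. At day 3, 1 of the 16 was called, where 6.12% of all genes were called. This was Suds3 (-0.31 ± 0.06, adjusted p = 0.0147, lost without floxed library 1, 0.0547, or the libraries numbered 3, 0.0998).

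Of 10 partners of Mga in PRC1.6, 7 were called lower in null embryoid bodies at day 5, 0 higher and 3 did not pass, with a median of -0.37. Of all genes, 13.5% were called lower and 13.0% higher, and Mga itself did not pass. Tfdp1, an E2F partner, had 4191, 4084 and 4527 normalised reads in floxed and 2904, 2884 and 2740.1 in null libraries (-0.59 ± 0.08, adjusted p = 0.000285). Pcgf6, the PCGF subunit that defines the complex, had 1454, 1292 and 1444 in floxed and 955, 1044 and 1014 in null libraries (-0.47 ± 0.08, adjusted p = 0.0011). Neither gene overlapped between genotypes. Yaf2 (-0.58 ± 0.11) and the ubiquitin ligase gene Rnf2 (-0.39 ± 0.07) fell as well. At day 3, limma called 1 of the 10 partners, Tfdp1 (-0.32 ± 0.08, adjusted p = 0.0261), and 6.12% of all genes. DESeq2 also called Pcgf6 (-0.24, adjusted p = 0.0427). The Tfdp1 call was lost without any of 5 single day 3 libraries (0.0562 to 0.0992), without the libraries numbered 3 (0.146) and with the day 3 groups fitted alone (0.0755). With time, 5 of the 10 were called in floxed libraries (4 higher, 1 lower) and 6 in null (1 higher, 5 lower), beside 41.7% and 44.5% of all genes. Pcgf6 fell in both (-0.27 ± 0.08 and -0.51 ± 0.08), a floxed call lost without day 3 library 1 (0.0619) or day 5 library 2 (0.0596). The floxed count was 3 without the libraries numbered 3, and the null count was 3 without them or without day 5 library 2 and 2 without day 5 library 3.

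Of 12 germline genes known to be silenced through Mga and Max, 6 were called higher in null embryoid bodies at day 5, 0 lower and 6 did not pass, with a median of 0.67. Of all genes, 13.0% were called higher and 13.5% lower. Ddx4, the Vasa RNA helicase gene, had 219, 195 and 173 normalised reads in floxed and 444, 433 and 565 in null libraries (1.29 ± 0.14, adjusted p = 0.000131). Stk31, a testis kinase gene of low level here, had 12.7, 15.9 and 6.11 in floxed and 52.0, 45.4 and 57.0 in null libraries (2.14 ± 0.35, adjusted p = 0.0011). Smc1b, the meiotic cohesin gene, had 138, 143 and 133 against 314, 348 and 454 (1.41 ± 0.19, adjusted p = 0.000392), and Tdrd1, of the piRNA pathway, 69.6 ± 6.95 against 109.5 ± 13.8 (0.64 ± 0.15, adjusted p = 0.00939). For these genes no floxed library reached the level of a null library. The count of 6 was 3 without the libraries numbered 3, where Tdrd1 was among the calls lost (0.50, adjusted p = 0.121).

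At day 3, 0 of the 12 germline genes were called by limma, edgeR or DESeq2 (3 had an unadjusted p under 0.05 in limma). Limma called 6.12% of all genes there. Ddx4 had 478 ± 57.1 in floxed and 448 ± 49.3 in null libraries at day 3. With time, 8 of the 12 fell and 1 rose in floxed libraries (median -1.04), while 4 fell and 1 rose in null ones (median -0.32), beside 41.7% and 44.5% of all genes called. The null count of 5 was 2 without day 3 library 1 or 3 or day 5 library 2. Ddx4 fell by 1.28 ± 0.14 in floxed (adjusted p = 2.09e-05) and had 0.10 ± 0.14 in null (adjusted p = 0.603). Its interaction of 1.38 ± 0.20 passed the test (adjusted p = 0.0308), though not without 4 of the 12 single libraries, each left out in turn. Nor did it pass without the libraries numbered 3 (0.0885). In their RefSeq promoters, 9 of the 12 genes held CACGTG (75%), among them Ddx4 and Stk31 shown before, against 8.09% of all genes. Smc1b held none. The list was chosen from genes known to respond to loss of Mga or Max, so a share of E-boxes is part of what they are known for.

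Known targets that Myc activates were mostly lower in null embryoid bodies at day 5. Of 27 such genes, 17 were called lower and 1 higher (median -0.38), where 13.5% of all genes were called lower and 13.0% higher. Odc1, the rate-limiting enzyme of polyamine synthesis, fell from 20803 ± 1093 in floxed to 12090.2 ± 573 normalised reads in null libraries (-0.78 ± 0.07, adjusted p = 6.3e-05). Srm, spermidine synthase, fell from 2428 ± 231 to 1263 ± 90.2 (-0.94 ± 0.10), Ppat, of purine synthesis, by 0.64 ± 0.08, and the cell cycle kinase gene Cdk4 by 0.61 ± 0.08. One end of Cdk4 overlaps Tspan31 on the other strand, so its value may hold reads of both. Tert, the telomerase gene, was the 1 called higher, and is named as such after its value was seen. Of 11 genes that Myc is known to repress, 2 were called higher and 0 lower (median 0.39), a share near the 13.0% of all genes called higher. The stress-responsive Ndrg1 had 314 ± 89.9 in floxed and 905 ± 71.0 in null libraries (1.56 ± 0.24), and Gadd45b, of the DNA damage response, 247 ± 76.0 and 624 ± 155 (1.35 ± 0.39, adjusted p = 0.0216). The Gadd45b call was lost without floxed library 3 (0.0813) and without null library 2 or 3 (0.0724 and 0.0675), and the count of 2 was 4 with DESeq2 or the replicate block.

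At day 3 the activated targets were divided, with 2 of 27 called higher and 2 lower (median -0.10). Of all genes, 4.09% were called higher and 2.03% lower between genotypes at day 3. Cdk4 fell by 0.43 ± 0.08 and the ribosome assembly gene Rrs1 by 0.42 ± 0.09. Npm1 (0.37 ± 0.09) and Eif4a1 (0.27 ± 0.07), both on chromosome 11, rose. With chromosome 11 centred, Npm1 was at 0.01 and Eif4a1 at -0.09, the opposite sign. The count of 4 fell to 0 without the libraries numbered 3, to 1 without floxed library 1 or 2, to 2 without null library 1 or 3 or with chromosome 11 left out or centred, and to 1 with the day 3 groups fitted alone. Ndrg1 was higher at day 3 too (657 ± 124 in floxed, 2438 ± 786 in null, 1.85 ± 0.24, adjusted p = 0.00145). It was the 1 of 11 repressed targets called there. With time, 20 of the 27 targets fell and 1 rose in null libraries, and 8 fell and 3 rose in floxed ones. Of all genes, 44.5% were called in null libraries (21.9% lower) and 41.7% in floxed ones (19.2% lower), so the floxed count of 11 of 27 was near the share over all genes. That floxed count was 7 without day 3 library 1 or 2 and 6 without day 5 library 3.

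**Figure D4:**
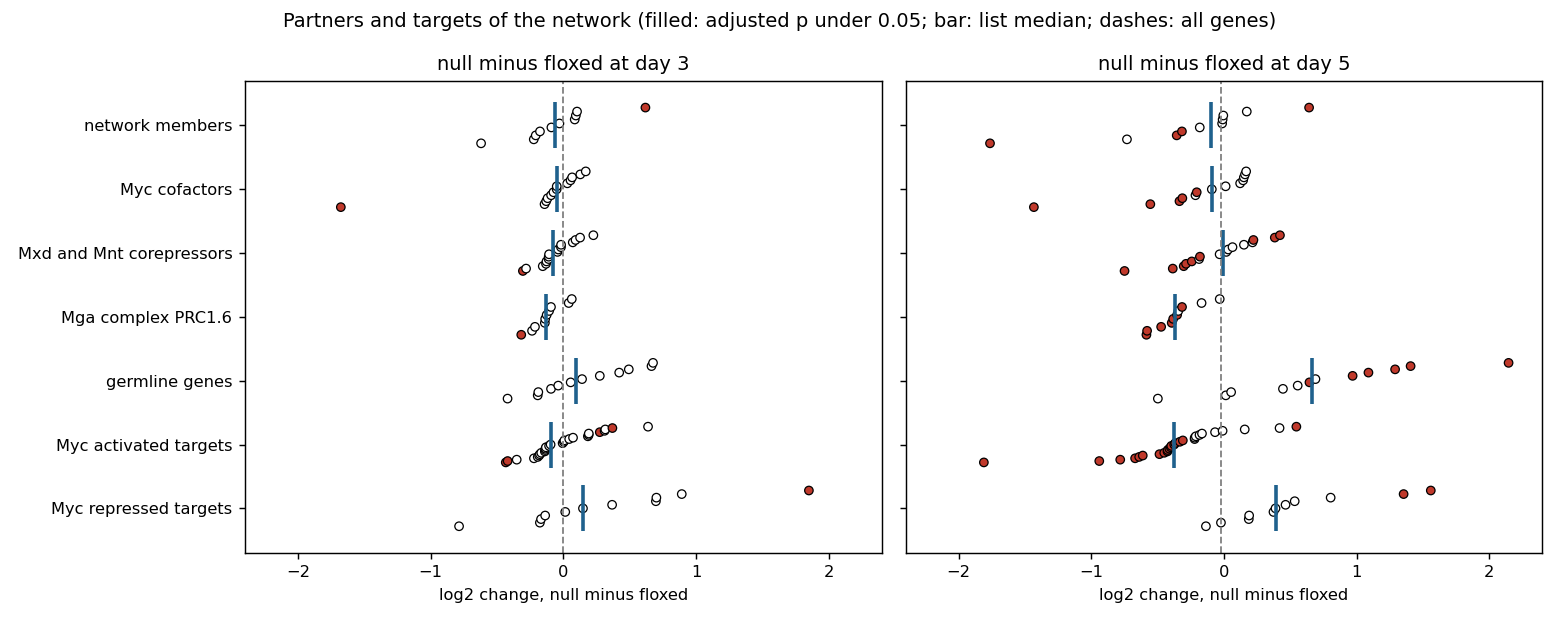
Log2 change, null minus floxed, at day 3 and day 5 (horizontal axis) for each gene of 7 lists, 1 point per gene, filled where the adjusted p was under 0.05. Bars are list medians and the dashed line is the median of all genes. At day 5 the medians are -0.37 for PRC1.6, 0.67 for germline genes and -0.38 for activated Myc targets.

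Genes that act on the Myc gene, its mRNA or its protein were read last. Of 18 regulators of Myc transcription and mRNA, 10 were called lower and 2 higher at day 5 (median -0.26), beside 13.5% and 13.0% of all genes. Stat3, a transcription factor that activates Myc in embryonic stem cells, rose from 1316 ± 200.1 to 3322 ± 107 (1.35 ± 0.13), and the Wnt effector Tcf7 rose by 0.71 ± 0.07. Both lie on chromosome 11. The mRNA-binding Igf2bp2 (-0.67 ± 0.09) and Igf2bp3 (-0.61 ± 0.09), which are known to stabilise Myc mRNA, fell. At day 3, 2 of the 18 were called higher and 1 lower, beside 4.09% and 2.03% of all genes. Stat3 (0.83 ± 0.13) and Tcf7 (0.60 ± 0.07) were higher, calls lost with chromosome 11 centred (0.47, adjusted p = 0.0827, and 0.24, adjusted p = 0.165). Igf2bp3 was lower (-0.46 ± 0.09).

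Of 14 genes of Myc protein turnover, 5 were called lower and 0 higher at day 5 (median -0.21), where 13.5% of all genes were called lower. Set, an inhibitor of the phosphatase PP2A, fell by 0.65 ± 0.09, and the F-box gene Skp2 by 0.42 ± 0.07. Aurka (-0.24 ± 0.08, adjusted p = 0.0427) lost its call under 9 settings, and the count of 5 was 3 under 6 settings, among them TMM scaling, edgeR and leaving out floxed library 1. At day 3, 1 of the 14 was called, where 6.12% of all genes were called. That was the F-box gene Fbxo32, which fell by 1.03 ± 0.16 (adjusted p = 0.00315). The parallel Mlx branch shares E-box binding but not Max. Within it 2 of 3 genes were called higher at day 5, beside 13.0% of all genes. Mlxipl rose at day 5 (15.9 ± 2.4 to 42.3 ± 11.3, 1.33 ± 0.25, adjusted p = 0.00243). Mlx, on chromosome 11, was called higher there as well (0.38 ± 0.11, adjusted p = 0.0183). It was at 0.04 with chromosome 11 centred (adjusted p = 0.840). The call was also lost without the libraries numbered 3 (0.0801), without floxed library 2 or 3 (0.0551 for each) and without null library 2 (0.0758).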

How the data were processed

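Stranded total RNA libraries were sequenced from 12 samples. The authors deposited a table of 1 signal value per gene and sample, which are read counts divided by 1 size factor per sample: 100% of values were whole multiples of 1 read (tolerance 0.01), so whole reads were recovered. The submitters' processing notes list HTSeq 0.6.0, TopHat2 2.0.10, DESeq 1.16.0, CASAVA 1.8.2 and mm10, with no roles given. Whether counting used the strand is not given in the sources used here. Symbols and positions came from GENCODE M21, which held 18199 of the 18269 IDs. Recovered reads numbered 23090915 to 29446068 per floxed and 18022071 to 26803369 per null library, and no 2 libraries were near copies (replicate r 0.982 to 0.990 across genes).

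The members, gene lists and alternatives were chosen with earlier results of these data known, so the lists are no independent support for any pattern. The test was limma-trend (limma 3.58.1, R 4.3.3) on log2(value + 1), two-sided, in which the 12 samples were fitted by 4 group means, leaving 8 residual degrees of freedom beside 5.00 prior ones. It covered 17000 genes whose mean reached 10 in 1 or more groups (1269 fell below), with Benjamini-Hochberg adjustment over all of them and calls at an adjusted p under 0.05. Fold changes are on the log2(value + 1) scale, which understates changes of low genes. All members were named whatever their result. From each other list came at most 4 called genes of smallest p per genotype comparison and 2 per day comparison, with Kat2a, Trrap, Mlx and Pcgf6. Positions of overlapping genes came from the same annotation, and values per kilobase used its exonic length. The script was tested on simulated data.

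Alternatives were other pseudocounts, filters and scalings, edgeR 4.0.16 and DESeq2 1.42.0 on recovered reads, the replicate block, leaving out libraries (each in turn, and all numbered 3), and leaving out or centring chromosome 11. Same-numbered samples deviated from their group means together between genotypes (r of 0.270 to 0.372 across genes at day 3 and 0.247 to 0.424 at day 5) and between days in the null line (0.123 to 0.282), so the numbers were taken to pair these samples. In the floxed line the days had 0.0814 to 0.214, and the numbers were not taken to pair them. The values of 1 listed gene are not reported here.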

Additional observations from a re-analysis of the deposited data

Results flagged for a closer look

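The genotype effect differed between days, by the interaction test, for 3 genes of the partner and target lists and for 0 of the 10 network members without the replicate block. These 3 were 1 of the 12 germline genes and 2 of the 27 activated Myc targets. Of all 17000 genes tested, 0.476% were called without the block. With the block the Myc interaction passed in limma (adjusted p = 0.0201) and edgeR (0.0257). That block also joins the floxed days, which the numbers were not taken to pair. Ddx4, a germline gene silenced through Mga and Max, had an interaction of 1.38 ± 0.20 (log2 ± SE, adjusted p = 0.0308 in limma). It fell with time in floxed libraries (1.28 lower on the log2 scale) and had 444, 433 and 565 normalised reads in null libraries at day 5, against 219, 195 and 173 in floxed ones. Odc1, of polyamine synthesis, had -0.60 ± 0.10 (adjusted p = 0.0345), with 20803 ± 1093 in floxed and 12090.2 ± 573 in null libraries at day 5. Ccnd2, the cyclin D2 gene, had -2.45 ± 0.43 (adjusted p = 0.0345), with 302 ± 148 in floxed and 443 ± 106 in null libraries at day 3 and 5653 ± 1486 and 1595 ± 311 at day 5. The Ddx4 call was lost in 4, and the Odc1 and Ccnd2 calls each in 9, of the 12 fits that left out 1 library, with an adjusted p of up to 0.0710 for Ddx4 and 0.0915 for Odc1 and Ccnd2. Without the libraries numbered 3, the Ddx4 and Odc1 calls were lost as well (adjusted p = 0.0885 for each). Each change kept its sign.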

How the results depend on the processing

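Counts of genes called depended on the setting more at day 3 and for the interaction than elsewhere. The 1041 genes called between genotypes at day 3 became 1696 with DESeq2, 647 with the day 3 groups fitted alone, 388 with chromosome 11 left out, 477 with it centred, 382 without replicate 3 in every group and 426 to 778 without single libraries. The 1 member called there became 0 with the day 3 groups fitted alone, with chromosome 11 left out or centred and without replicate 3 in every group, and 0 to 1 without single libraries. At day 5, the 4509 genes became 2592, and the 4 members 2, without replicate 3 in every group (3223 to 4073 genes and 3 to 4 members without single libraries). The 5 members called between days in null libraries became 3 to 5 without single libraries. The 81 interaction genes became 511 with DESeq2, 35 without replicate 3 in every group and 3 to 115 without single libraries. The causes were not tested, beyond the fewer libraries that leaving some out implies. Eif4a1 at day 3 turned from 0.27 to -0.0864 with chromosome 11 centred. No other named change reversed after being called, and pseudocounts, the low-value filter and TMM scaling moved none of these counts by over 1.5 times.

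With the replicate block, limma called 1866 genes at day 3 (edgeR with the block, added after seeing the data, 1794) and 443 in the interaction (391), and 2 members at day 3 and 1 in the interaction with either tool. In floxed libraries between days, where the numbers did not pair the samples, the block called Mga (adjusted p = 0.0148). Apart from the calls given beside the results, the block changed no member's call. Depth limits Mxd1 and Myc most among the members, with 67 and 77 reads in their lowest libraries.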
